A study of Mus musculus with 21 samples.

Results

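Type I interferon-stimulated genes are genes whose transcription rises when a cell senses interferon alpha or beta. The 33 genes described here were chosen by symbol as well-known members of that response. All 33 were found among the 38924 gene symbols of the count table, and all 33 were among the 15770 genes with enough reads to be tested. They were sorted into 7 role classes, which are nucleic acid sensors, transcription factors, the OAS family, antiviral effectors, the ISG15 system, PARP and TRIM proteins, and other induced genes.

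RNA was sequenced in 21 libraries from lungs of female A/J mice collected 22 weeks after treatment, 3 libraries in each of 7 groups. NNK, a tobacco-specific nitrosamine that gives lung tumours in this strain, was injected into the peritoneum as 1 dose of 100 mg/kg, and LPS, a component of the outer wall of gram-negative bacteria, was put into the nose at 5 µg per mouse in 50 µL, 1 time a week, starting 1 week after NNK. The comparison of groups asked how repeated inflammation acts in lung and in tumours, and whether the dietary agents silibinin (Sil) and indole-3-carbinol (I3C) alter it. NNK_LPS_Sil_I3C mice had NNK, LPS and both agents at 20 µmol/g of diet each. NNK_LPS_I3C and NNK_LPS_Sil mice had NNK, LPS and 1 agent at that dose, NNK_LPS mice had NNK and LPS, and NNK mice had NNK alone. LPS mice had LPS without NNK, and Control mice had vehicle. In the 5 groups with NNK the RNA came from dissected tumours pooled from 3 mice per group, and in the LPS and Control groups it came from normal lung, so an effect of tumour tissue and an effect of NNK cannot be told apart. The labels leave unsaid if a group's 3 libraries stand for 3 mice. P-values here therefore measure only how libraries spread, which may be technical.

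Interferon alpha and beta bind a receptor made of Ifnar1 and Ifnar2, whose kinases Jak1 and Tyk2 start the signal. It leads to the complex ISGF3, which contains Stat2 and Irf9 and binds a DNA element called the ISRE near the start of target genes. LPS is known to induce interferon beta in macrophages through its receptor Tlr4 and the adaptor Ticam1, and interferon gamma, which acts through GAS elements, induces many of the same genes. The genes act at several steps, from the sensing of viral nucleic acid to the block of viral entry, translation, replication and release.

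The DNA around the transcription starts is shown first, because the ISRE is the element through which ISGF3 acts. The 6 promoters below were chosen among genes with a single start window that holds the ISRE letters. They are those with the highest and the lowest LPS responses reported further on, so a match in each was given by the choice. RefSeq promoter windows of 300 bases (250 before the start and 50 after it, build GRCm38.p6) were matched for 23 of the 33 genes. The 200 bases nearest the start are printed 5′ to 3′ in the direction of transcription, and all 6 lie on the minus strand. Capitals mark every match to the ISRE core letters on either strand, which are TTTC, any 2 bases, then TTTC, and on the other strand GAAA, any 2 bases, then GAAA.
Oas3 (chr5:120777610-120777809): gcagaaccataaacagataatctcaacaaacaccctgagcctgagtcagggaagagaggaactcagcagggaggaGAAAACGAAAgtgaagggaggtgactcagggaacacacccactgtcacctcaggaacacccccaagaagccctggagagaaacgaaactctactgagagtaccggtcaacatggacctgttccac
Rsad2 (chr12:26456403-26456602): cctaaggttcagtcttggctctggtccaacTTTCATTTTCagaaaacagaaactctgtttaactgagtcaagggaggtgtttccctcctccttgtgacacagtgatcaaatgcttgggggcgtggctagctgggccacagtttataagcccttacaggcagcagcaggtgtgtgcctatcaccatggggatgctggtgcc
Isg15 (chr4:156200769-156200968): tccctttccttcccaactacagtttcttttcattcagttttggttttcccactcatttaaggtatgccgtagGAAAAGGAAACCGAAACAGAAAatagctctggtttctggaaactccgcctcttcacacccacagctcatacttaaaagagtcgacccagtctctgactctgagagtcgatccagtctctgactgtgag
Oas1a (chr5:120907476-120907675): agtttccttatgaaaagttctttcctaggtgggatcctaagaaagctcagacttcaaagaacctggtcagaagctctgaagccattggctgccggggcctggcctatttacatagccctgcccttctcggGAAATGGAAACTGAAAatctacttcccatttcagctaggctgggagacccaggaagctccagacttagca
Eif2ak2 (chr17:78882523-78882722): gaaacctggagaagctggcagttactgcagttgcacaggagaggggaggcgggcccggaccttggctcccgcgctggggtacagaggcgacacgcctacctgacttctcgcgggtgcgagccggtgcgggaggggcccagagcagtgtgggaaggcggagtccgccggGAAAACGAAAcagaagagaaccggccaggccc
Ddx58 (chr4:40239776-40239975): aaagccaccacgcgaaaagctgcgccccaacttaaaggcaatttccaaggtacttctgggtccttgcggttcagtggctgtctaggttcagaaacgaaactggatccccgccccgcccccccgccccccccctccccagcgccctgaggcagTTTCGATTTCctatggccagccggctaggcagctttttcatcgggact
Positions below count the first transcribed base as 1, and a negative position lies before it. In Isg15 the capitals cover 3 overlapping matches, starting at -78, -72 and -66, and in Oas1a they cover 2, starting at -20 and -14. The single matches start at -75 in Oas3 and -120 in Rsad2, and inside the transcribed part at 19 in Eif2ak2 and 3 in Ddx58. Over the full windows the ISRE letters were present in 12 of 23 genes (52.2%), which were Bst2, Ddx58, Eif2ak2, Ifih1, Ifit1, Ifit3, Isg15, Oas1a, Oas3, Rsad2, Stat2 and Trim30a. Of all 27025 genes with a RefSeq window, 1079 held them (3.99%). The GAS letters TTCNNNGAA, searched on both strands, were present in 6 of the 23 genes (26.1%) and in 2582 of the 27025 (9.55%). Oas1a, Eif2ak2 and Bst2 held both motifs. Oasl1 and Irf7, whose windows hold no ISRE match, and Zbp1, which has no window, rose more with LPS than Isg15 and are not printed. A match describes letters in a window and is not a site shown to be bound.

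Many of the genes are neighbours in the genome, by the GENCODE M21 annotation of GRCm38. Oas2, Oas3 and Oas1a lie within 177 kb on chromosome 5 (120730333 to 120907521), and Oasl2 and Oasl1 lie within 41.0 kb on the same chromosome (114896936 to 114937915). Ifit2, Ifit3 and Ifit1 share 99.3 kb of chromosome 19, Rsad2 and Cmpk2 share 37.1 kb of chromosome 12, and Parp14, Parp9, Mx1, Mx2 and Rtp4 all lie on chromosome 16. The 33 genes occupy 14 chromosomes in all. Neighbours from 1 cluster are not independent observations. The library kit does not mark strand. Reads of Irf7, Dhx58, Parp9 and Rtp4 thus cannot be told apart from those of opposite-strand genes where they overlap (Phrf1, Dhx58os, Dtx3l and Masp1). Irf9 overlaps Rnf31 on the same strand, so their shared reads are uncertain with any kit. Further genes, among them Oasl1, Ifi35, Usp18 and Eif2ak2, overlap noncoding genes on the other strand. Reads of Ifit3, Oas1a, Trim30a and Ifi27l2a, which have near-identical relatives, are likewise uncertain.

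Total counts ran from 13305504 to 25276293 per library. Levels are in CPM, counts scaled by normalised library size, and 1 CPM stood for 13.2 to 26.2 counts. The libraries fell into 3 sets that the labels do not name, by their mt-Atp8 counts over their mt-Atp6 counts. This ratio was under 0.05 in Control, NNK, LPS 1 and LPS 2, between 0.05 and 0.1 in LPS 3, NNK_LPS, NNK_LPS_Sil and NNK_LPS_I3C 1, and over 0.1 in NNK_LPS_I3C 2 and 3 and NNK_LPS_Sil_I3C. NNK_LPS therefore shares no set with NNK, Control or NNK_LPS_Sil_I3C. All NNK_LPS_Sil libraries share its set, as does NNK_LPS_I3C 1, and of the LPS libraries only LPS 3 does.

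Repeated LPS raised all 33 genes in lung. Against Control lung, 33 of 33 rose and none fell by edgeR's quasi-likelihood test with Benjamini-Hochberg adjustment over all genes, at adjusted p-values between 1.23e-08 and 0.00229. Among all genes tested, 25.3% were called higher in the same comparison, so the 33 genes stood well above that background. Their median log2 change was 2.31, a fold of 4.95, and it ran from 0.82 for Ddx58 to 6.12 for Oas3, while the median over all genes was -0.02. The 3 LPS libraries lay above the 3 Control libraries for all 33 genes, which was the case for 30.4% of all genes. Without LPS 3, all libraries of both groups come from 1 library set. In that fit 33 genes were still called, with a median of 2.31, against 41.5% of all genes called in either direction. In whole tissue, more cells of a type and more RNA per cell cannot be told apart.

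Between tumours with and without the same weekly LPS no such change was seen. Between NNK_LPS tumours and NNK tumours, 0 of 33 genes were called by edgeR or by DESeq2, and 2 (Oas1a and Trim30a, both higher) had an unadjusted p under 0.05 in edgeR. The background was low here too, with 0.0951% of all genes called. The median log2 change of the 33 genes was 0.13, from -0.56 for Mx1 to 0.90 for Oas3. NNK_LPS and NNK share no library set, so this comparison and the interaction below also contain any difference between sets. A term for library set, which here rests on LPS 3 against LPS 1 and 2, left 0 of 33 genes and 0 of all genes called. The median was then 0.21, from -0.10 to 1.015. The difference between the LPS effect in tumours and the LPS effect in lung was tested as an interaction. It was below 0 for 33 of 33 genes and called for all 33 (adjusted p from 4.64e-06 to 0.0278), against 14.4% of all genes called lower. Its median was -2.23. With the term for library set the median was -2.14 and 31 genes were called, against 19.1% of all genes called in either direction. The lowest LPS library was above every library of the other 6 groups for each of the 33 genes. The share of all genes with that order was not counted.

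**Figure D1:**
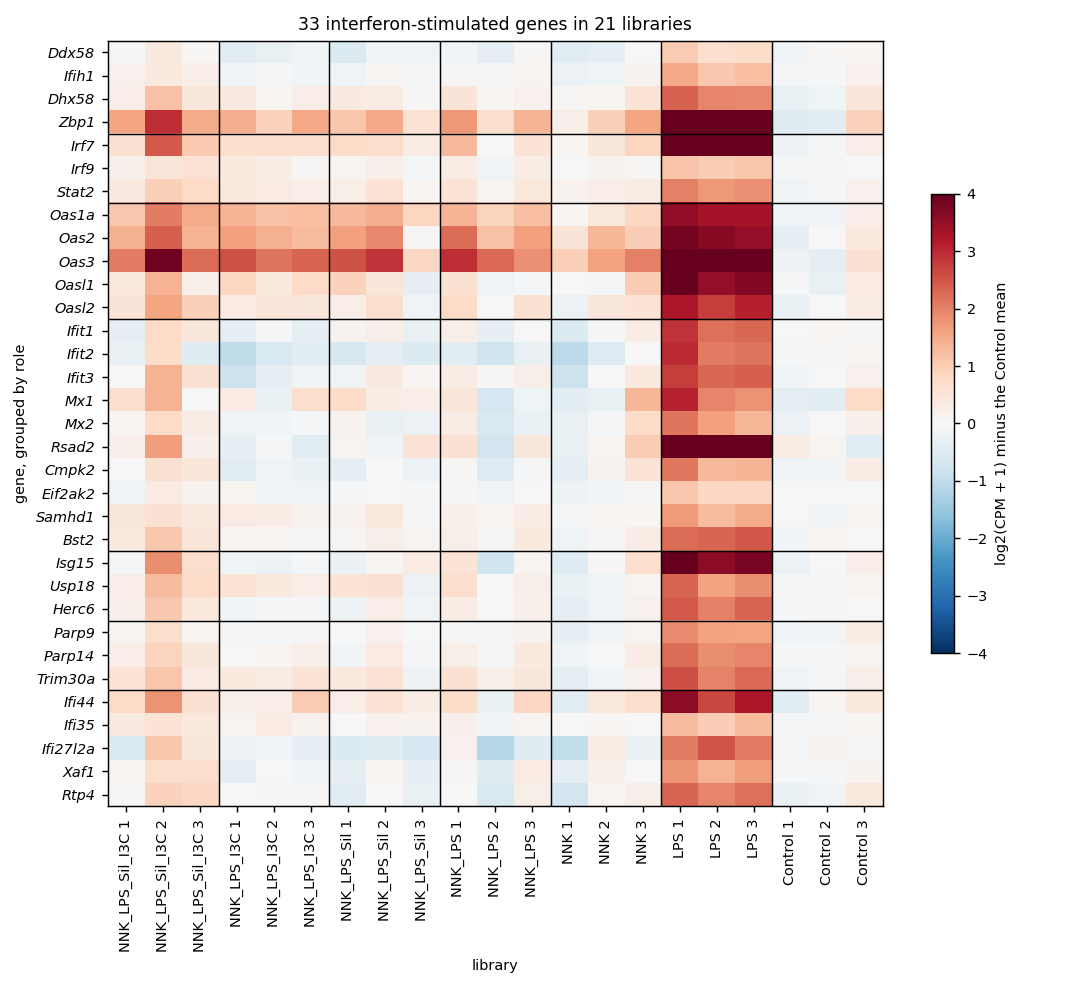
Each row is one of the 33 genes, grouped by role, and each column is 1 of the 21 libraries. Colour gives log2(CPM + 1) minus the mean of the 3 Control libraries, with the scale limited to 4 in either direction. The 3 LPS columns are red in every row, and among the remaining columns NNK_LPS_Sil_I3C 2 is the reddest, as the highest library outside LPS for 32 of 33 genes.

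**Figure D2:**
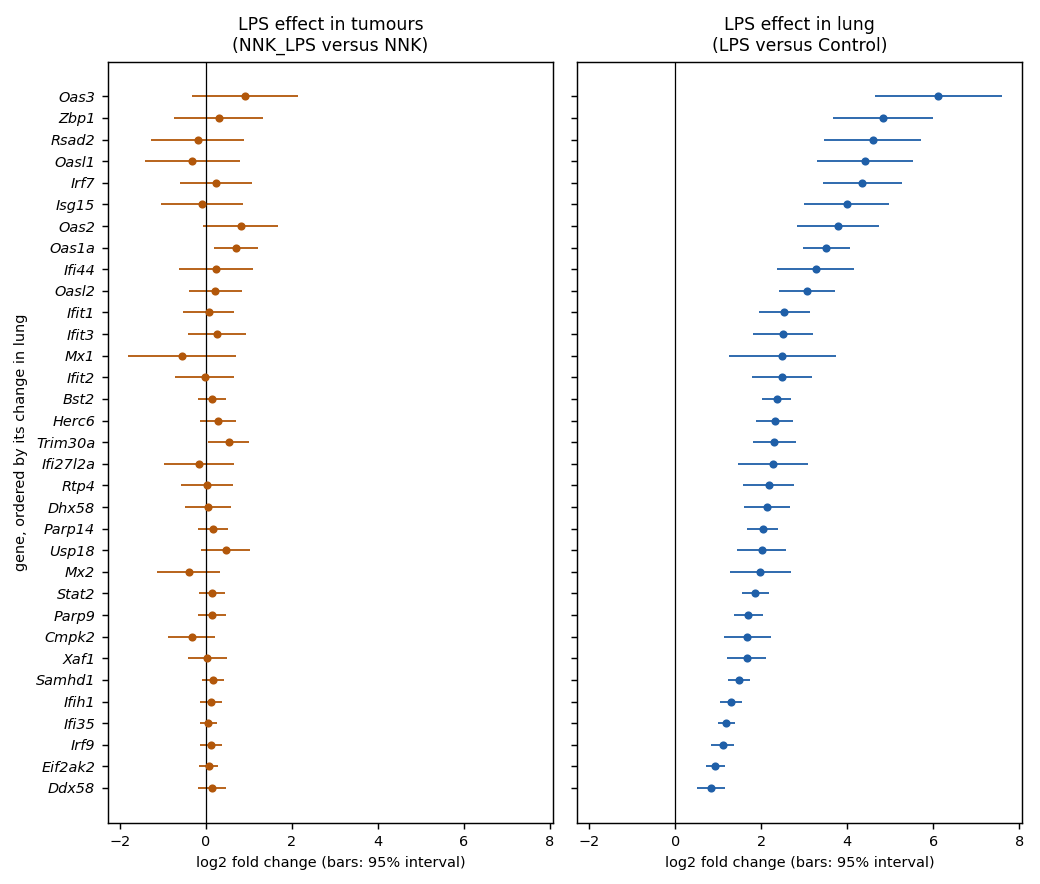
Points give the log2 fold change of each gene and bars its 95% interval, for NNK_LPS tumours over NNK tumours on the left and LPS lung over Control lung on the right. In lung the points run from 0.82 to 6.12 and no bar reaches 0, while in tumours the points run from -0.56 to 0.90.

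Among the nucleic acid sensors, Zbp1, which binds left-handed nucleic acid and can start necroptosis, moved most. Its level was 309, 202 and 274 CPM in LPS lung and 5.54, 5.62 and 16.1 CPM in Control lung. It was 29, 13.3 and 22 CPM in NNK_LPS tumours and 9.56, 16.5 and 26.2 CPM in NNK tumours. The LPS and Control libraries were far apart, while those of both tumour groups overlapped. The log2 change was 4.84 ± 0.55 in lung (adjusted p = 3.29e-06) and 0.30 ± 0.49 in tumours, with an interaction of -4.54 ± 0.71 (adjusted p = 0.000292). Ddx58 encodes RIG-I, the sensor of RNA with 5′ triphosphate ends, and moved least. It stood at 179, 142 and 148 CPM in LPS lung and 80.5, 90.5 and 94 CPM in Control lung, and at 82.1, 67.2 and 92 CPM in NNK_LPS tumours and 64.4, 68.3 and 87.9 CPM in NNK tumours. Every LPS library was above every Control library, and the tumour libraries overlapped. Its interaction of -0.69 ± 0.22 was the closest to the threshold of all (adjusted p = 0.0278) and was no longer called with a term for library set (-0.61) or without Control 1 (-0.63), NNK 3 (-0.55), LPS 1 (-0.59) or NNK_LPS 2 (-0.59). Ifih1, which encodes the long double-stranded RNA sensor MDA5, rose with LPS in lung by 1.29 ± 0.12. Dhx58, whose product LGP2 modulates the other sensors of this family, rose by 2.14 ± 0.26.

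Of the transcription factors, Stat2, a subunit of ISGF3, measured 256, 211 and 225 CPM in LPS lung and 57, 61.3 and 71.5 CPM in Control lung. In NNK_LPS tumours it measured 93.1, 68.4 and 83.9 CPM, and in NNK tumours 68.9, 75.6 and 78.4 CPM. Its log2 change was 1.86 ± 0.15 in lung (adjusted p = 6.77e-08), against 0.14 ± 0.15 in tumours, where the groups overlapped. Irf9, the DNA-binding subunit of ISGF3, was among the genes that moved least, with 126, 116 and 124 CPM in LPS lung and 54.3, 58.9 and 57.6 CPM in Control lung. It had 70.4, 51.4 and 70.8 CPM in NNK_LPS tumours and 56.8, 63 and 58.2 CPM in NNK tumours. The lung groups were separate and the tumour groups were not. The change was 1.10 ± 0.12 in lung and 0.11 ± 0.12 in tumours, with an interaction of -0.99 ± 0.17 (adjusted p = 0.000575). Irf7, the factor that amplifies transcription of the interferon alpha genes, rose in lung by 4.35 ± 0.43, a fold of 20.4.

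The enzymes of the OAS family make oligoadenylates that switch on the RNA-degrading enzyme RNase L, and the family was the role class with the highest median log2 change in LPS lung (3.78). Oas3, which prefers long double-stranded RNA, had 156, 114 and 148 CPM in LPS lung and 1.44, 1.15 and 3.36 CPM in Control lung, where its raw counts were only 19, 18 and 52. The change of 6.12 ± 0.70 on the log2 scale (adjusted p = 3.41e-06) was the highest of the 33 genes, with a 95% interval from 4.64 to 7.59. In NNK_LPS tumours Oas3 had 20.9, 12.6 and 8.99 CPM and in NNK tumours 4.48, 7.59 and 10.6 CPM, which overlap. The interaction was -5.21 ± 0.89 (adjusted p = 0.00059). Oasl2, a relative with a ubiquitin-like tail, had 418, 307 and 389 CPM in LPS lung and 36.3, 43.2 and 54.2 CPM in Control lung, against 77.9, 43.1 and 68.1 CPM in NNK_LPS tumours and 37.3, 60.3 and 64.7 CPM in NNK tumours. It rose by 3.06 ± 0.31 in lung, and the tumour groups overlapped. Oasl1, which in the mouse restrains translation of Irf7, had 59.3, 33.5 and 38.1 CPM in LPS lung and 1.9, 1.47 and 2.78 CPM in Control lung. Its log2 change in lung was 4.41 ± 0.53 and its interaction was -4.73 ± 0.73 (adjusted p = 0.000217), as NNK_LPS tumours had 3.59, 1.64 and 1.93 CPM and NNK tumours 1.94, 1.85 and 5.13 CPM. Oas2 rose by 3.78 ± 0.45 with LPS in lung.

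Oas1a, an active oligoadenylate synthase of the mouse Oas1 group, had 28.3, 20.1 and 25.2 CPM in NNK_LPS tumours and 11.2, 14.4 and 19.5 CPM in NNK tumours, which did not overlap. The log2 change of 0.70 ± 0.24 was not called (adjusted p = 0.177). In LPS lung it had 134, 114 and 115 CPM and in Control lung 9.56, 9.45 and 12.7 CPM, a change of 3.51 ± 0.26. All NNK_LPS libraries lay above all NNK libraries for 3 of the 33 genes (Oas1a, Samhd1 and Trim30a), 9.09%, and 10.7% of all genes did so, which is a share near the background.

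**Figure D3:**
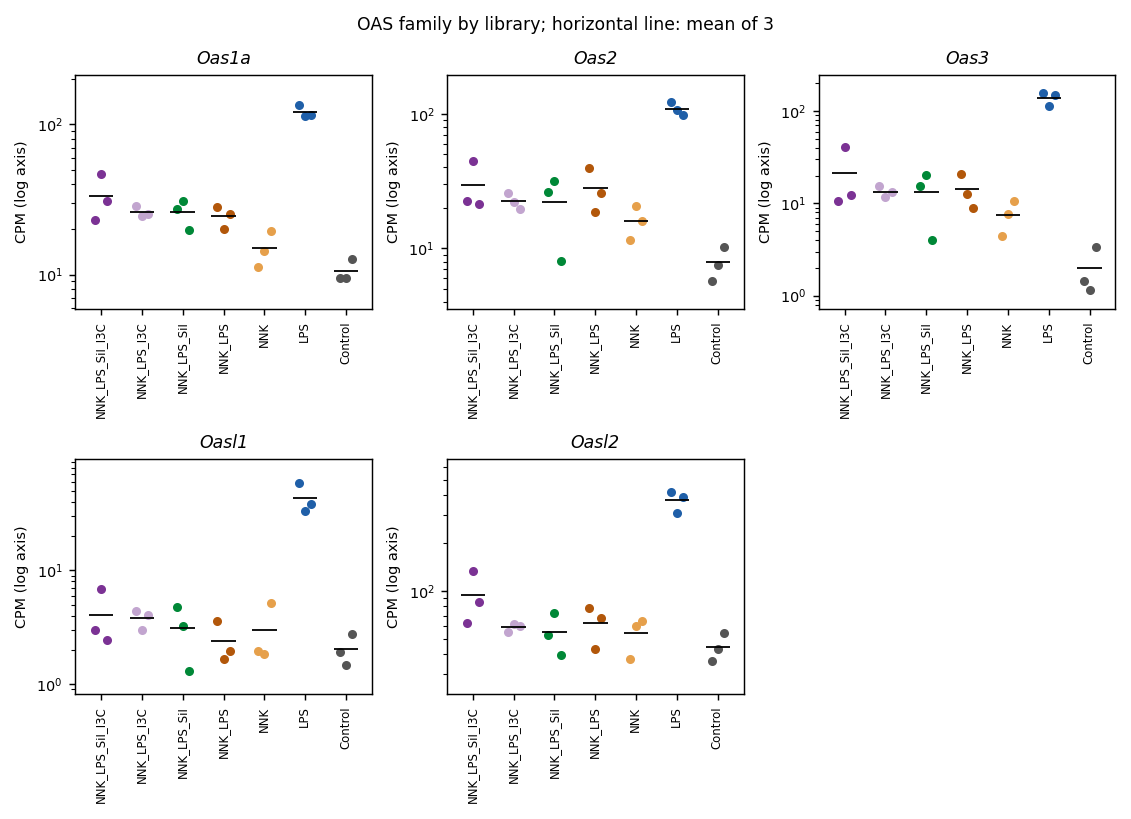
Each panel shows 1 gene of the OAS family, with CPM on a log axis, 1 point per library and a horizontal line at the mean of 3. LPS libraries are the highest in all 5 panels. For Oas1a, Oas2 and Oas3 the 3 NNK_LPS libraries lie above the 3 Control libraries.

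The 10 antiviral effectors all rose with LPS in lung, from 0.93 for Eif2ak2 to 4.59 for Rsad2. Rsad2 encodes viperin, which makes a nucleotide that ends viral RNA chains. Its level was 204, 104 and 109 CPM in LPS lung and 7.13, 6.19 and 4 CPM in Control lung, and it was 9.19, 2.95 and 8.02 CPM in NNK_LPS tumours and 4.41, 6.22 and 12.6 CPM in NNK tumours. LPS libraries were more than an order of magnitude above Control, and the NNK_LPS libraries overlapped those of both NNK and Control. The change was 4.59 ± 0.53 in lung (adjusted p = 3.73e-06) and -0.20 ± 0.51 in tumours, and the interaction was -4.79 ± 0.72 (adjusted p = 0.000202). Eif2ak2, the kinase PKR that halts translation on double-stranded RNA, had 94.6, 78.9 and 79.7 CPM in LPS lung and 43.8, 45 and 43.9 CPM in Control lung. It had 45.8, 39.9 and 44.6 CPM in NNK_LPS tumours and 38.2, 41.1 and 45.3 CPM in NNK tumours. The change in lung was small but the libraries were tight (0.93 ± 0.11, adjusted p = 1.95e-06), and the interaction was -0.87 ± 0.15 (adjusted p = 0.00047).

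Samhd1, which breaks down the nucleotides needed for reverse transcription, was measured at 966, 711 and 829.5 CPM in LPS lung and 294, 274 and 322 CPM in Control lung. In tumours it was 343, 313 and 366 CPM with LPS and 287, 313 and 310.1 CPM in NNK alone. The lung groups did not overlap, and the tumour groups did not either, though the lowest NNK_LPS library and the highest NNK library both round to 313 CPM. The change was 1.49 ± 0.12 in lung and 0.17 ± 0.12 in tumours, where it was not called (adjusted p = 0.524). Bst2, or tetherin, holds budding virus at the cell surface and had the smallest adjusted p of the 33 genes in lung (2.37 ± 0.16, adjusted p = 1.23e-08). It was at 417, 445 and 489.6 CPM in LPS lung and 81.3, 92.2 and 88.7 CPM in Control lung, against 103, 85.3 and 114 CPM in NNK_LPS tumours and 76.6, 91 and 106 CPM in NNK tumours. Again the lung groups were far apart and the tumour groups overlapped. The IFIT proteins bind foreign RNA and block its translation. Ifit1, Ifit2 and Ifit3 rose together in lung, by 2.54 ± 0.28, 2.47 ± 0.33 and 2.51 ± 0.33. The dynamin-like GTPases Mx1 and Mx2 rose by 2.49 ± 0.59 and 1.98 ± 0.34. Mx1 varied most between LPS libraries, with 49.1, 21.7 and 19.7 CPM. GENCODE lists Mx2 as a polymorphic pseudogene in the reference strain. Cmpk2, a mitochondrial nucleotide kinase gene beside Rsad2, rose by 1.67 ± 0.26.

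In the ISG15 system, Isg15 is the ubiquitin-like protein itself, Herc6 is its main ligase in the mouse, and Usp18 removes it and also damps signalling at Ifnar2. Herc6 had 152, 113 and 139 CPM in LPS lung and 26, 27.9 and 27.4 CPM in Control lung, and 33.7, 26.8 and 31.6 CPM in NNK_LPS tumours and 20.7, 24.4 and 30.8 CPM in NNK tumours. It rose by 2.31 ± 0.20 in lung and changed by 0.28 ± 0.20 in tumours, where it was not called. Usp18 had 119.6, 72.9 and 86.9 CPM in LPS lung and 21.8, 22.4 and 25.2 CPM in Control lung. It had 38.5, 22.6 and 27.2 CPM in NNK_LPS tumours and 19.2, 20.5 and 24.8 CPM in NNK tumours, which overlap. Its rise in lung was 2.01 ± 0.27 (adjusted p = 1.45e-05). Isg15 had 199, 130.1 and 153 CPM in LPS lung and 8.34, 9.77 and 12.1 CPM in Control lung, a change of 3.99 ± 0.47. It had 15, 5.31 and 10.9 CPM in NNK_LPS tumours and 6.62, 10.3 and 16.4 CPM in NNK tumours, a change of -0.09 ± 0.45.

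Parp14 and Parp9 are ADP-ribosyltransferase family members that act in macrophage responses to interferon. Parp14 had 641, 493 and 527 CPM in LPS lung and 128, 131 and 146 CPM in Control lung, and 161, 132 and 175 CPM in NNK_LPS tumours and 119.6, 132 and 167 CPM in NNK tumours. Parp9 had 227, 186 and 182 CPM in LPS lung and 53.5, 56 and 73.7 CPM in Control lung, and 62.1, 57.4 and 66.4 CPM in NNK_LPS tumours and 47.9, 54.8 and 65.6 CPM in NNK tumours. For both genes the lung groups were separate and the tumour groups overlapped, with changes of 2.03 ± 0.17 and 1.70 ± 0.16 in lung. Trim30a, which restrains Toll-like receptor signalling in the mouse, rose by 2.31 ± 0.23 in lung. In tumours its 3 NNK_LPS libraries (68.4, 51.6 and 60.7 CPM) lay above the 3 NNK libraries (34.4, 40.8 and 50.0 CPM), a change of 0.53 ± 0.23 that was not called (adjusted p = 0.265).

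The last class holds induced genes with other or less settled roles. Ifi35, which binds the partner protein Nmi, had 95.2, 80.3 and 98.1 CPM in LPS lung and 38.6, 38.9 and 42.3 CPM in Control lung, and 45.8, 37 and 43.2 CPM in NNK_LPS tumours and 39.3, 41.8 and 40.2 CPM in NNK tumours. It rose by 1.19 ± 0.09 in lung, with little spread among libraries. Ifi27l2a, a small membrane protein gene, had 124, 167 and 123 CPM in LPS lung and 26.7, 31.4 and 27.8 CPM in Control lung, a rise of 2.27 ± 0.38. In NNK_LPS tumours it had 32.4, 12.5 and 20.2 CPM, and in NNK tumours 13.8, 35.2 and 23.7 CPM, wide ranges that overlap. Ifi44, Xaf1, which antagonises the apoptosis inhibitor Xiap, and Rtp4, a receptor-transporting protein gene, rose in lung by 3.26 ± 0.42, 1.67 ± 0.22 and 2.18 ± 0.28.

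**Figure D4:**
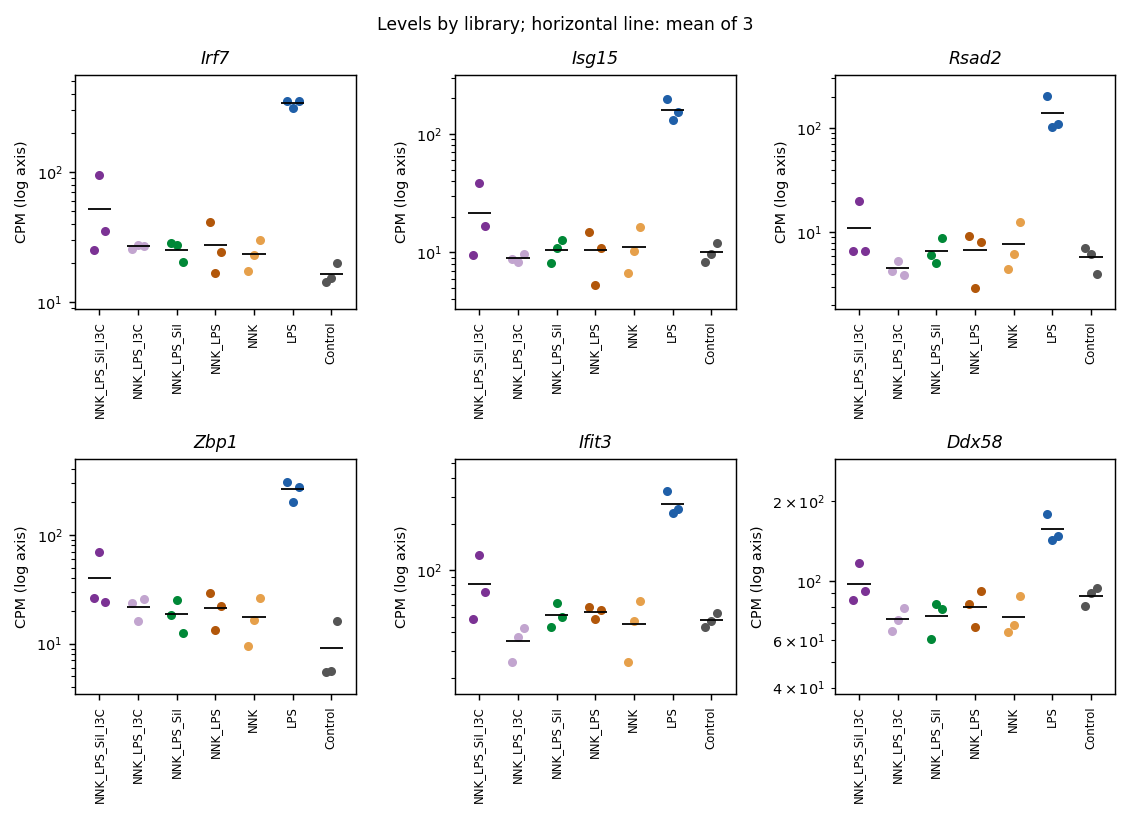
Panels show 6 genes, chosen after their values were seen, with CPM on a log axis, 1 point per library and a horizontal line at the mean of 3. In each panel the 3 LPS libraries are above all 18 others. The range is narrow for Ddx58, with LPS at 142 to 179 CPM and Control at 80.5 to 94.0 CPM, and wide for Rsad2, with LPS at 104 to 204 CPM and Control at 4.00 to 7.13 CPM.

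Per kilobase of exon, levels can be set roughly side by side between genes. Length was that of all GENCODE M21 exons of a gene merged, and the annotation behind the counts is not given. Reads of Ifi27l2a are uncertain, as stated above. In LPS lung Bst2 was the highest at 499 ± 40.7 CPM per kb, followed by Ifi27l2a at 298 ± 54.4 and Isg15 at 212 ± 46.2 (SD, n = 3 each), and the lowest was Mx2 at 4.1 ± 1.26 CPM per kb. In Control lung Bst2 was again the highest at 96.8 ± 6.15 CPM per kb, and Oas3 was the lowest at 0.28 ± 0.17. The highest and the lowest gene differed 122-fold in LPS lung and 345-fold in Control lung. Oas3 and Rsad2, among the most induced, had thus been among the least expressed in Control. Across the 33 genes the Control level per kb and the log2 change with LPS had a Spearman rho of -0.44, given as a description, since both quantities contain the same Control libraries and genes are not independent replicates.

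Genes with and without the ISRE letters spanned much of the same range of LPS responses. The 12 genes that hold them in the RefSeq window ran from 0.82 (Ddx58) to 6.12 (Oas3) in log2 change with LPS in lung, with a median of 2.44. The 11 genes with a window and no match ran from 1.10 (Irf9) to 4.41 (Oasl1), with a median of 2.31, and the 10 with no window ran from 1.70 (Parp9) to 4.84 (Zbp1). These groups were not tested against each other.

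Transcripts of type I interferons themselves were nearly absent from the libraries. Ifnb1, interferon beta, had 2 counts over the 3 LPS libraries, 1 over the NNK_LPS_Sil_I3C libraries and 0 in the other 5 groups, where a count of 0 allows up to 0.0677 CPM in Control (3 counts over the group, counting error only). The 12 interferon alpha genes of the table had 1 count in total, in NNK. Ifng, the interferon gamma gene, was detected, with 294 counts over the LPS libraries and 1 over the Control libraries, and with 26 in NNK_LPS and 11 in NNK. Ifnar1 had 134, 121 and 124 CPM in LPS lung and 92, 98.6 and 99.9 CPM in Control lung, a rise of 0.38 ± 0.06. Ifnar2 had 131, 133 and 157 CPM in LPS lung and 63, 67.4 and 64.2 CPM in Control lung, a rise of 1.11 ± 0.11.

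Other genes of the pathway moved between LPS and Control lung, where 25.3% of all genes were called higher and 24.7% lower. The receptor kinase gene Jak2 rose by 1.19 ± 0.10 in LPS lung. Of 17 genes that lead to interferon induction, 14 rose and 1 fell, among them Ikbke, a kinase upstream of Irf3 and Irf7 (3.44 ± 0.28), the adaptor gene Myd88 (1.34 ± 0.10) and Tmem173, which encodes STING (2.20 ± 0.20). Of 10 negative regulators 7 rose and 2 fell, led by Socs1, an inhibitor of the Jak kinases (4.73 ± 0.46). Of 46 further interferon-stimulated genes 44 rose and none fell, with a median of 1.72. In tumours, NNK_LPS against NNK, none of these 3 lists had a called gene, and Jak2 was not called either. Only 0.0951% of all genes were called there.

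Cell markers moved with the LPS result in lung, where 25.3% of all genes were called higher and 24.7% lower. All 14 tested monocyte and macrophage markers rose, and their summed level was 2636 to 2789 CPM in LPS lung and 513 to 599 CPM in Control lung. Alveolar macrophage markers, which mark the resident macrophages of the air space, went mostly the other way, as 1 of 10 rose and 6 fell, with a median log2 change of -0.86 (735 to 1133 CPM in LPS lung and 795 to 944 CPM in Control lung). Of 12 T cell markers 11 rose (192 to 252 CPM in LPS lung and 51.9 to 81.2 CPM in Control lung), of 7 natural killer cell markers 4 rose, and of 11 neutrophil markers 8 rose (871 to 1123 CPM in LPS lung and 37.3 to 103 CPM in Control lung). The neutrophil marker Ly6g was at 0 in all 3 Control libraries. Of 9 plasmacytoid dendritic cell markers, the cells known for making most interferon alpha, 2 rose and 3 fell (135 to 168 CPM in LPS lung and 172 to 191 CPM in Control lung). These 2 shares are near those of all genes. All 8 endothelial markers and all 8 heart muscle markers fell, and 4 of 8 alveolar type 2 markers fell. In tumours the monocyte and macrophage markers summed to 791 to 1014 CPM in NNK_LPS and 628 to 699 CPM in NNK, and 1 of 14 rose, the monocyte gene Ly6c2 (1.41 ± 0.17, adjusted p = 0.00417). The markers of alveolar type 2 cells, the surfactant-making cells of the lung, summed to 47794 to 66003 CPM in NNK_LPS tumours and 18468 to 22228 CPM in LPS lung. The part of these cell markers in the interferon-stimulated genes was not tested.

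Set directly against LPS lung, NNK_LPS tumours had lower levels of all 33 genes. All 33 were called lower, while 20.9% of all genes were, and all 33 were lower without overlap, against 27.4% of all genes. The median log2 change was -2.16, and it ran from -4.36 for Rsad2, -4.19 for Oasl1 and -3.94 for Isg15 to -0.93 for Irf9, -0.96 for Eif2ak2 and -0.96 for Ddx58. LPS 3, the LPS library in the same library set as NNK_LPS, was above every NNK_LPS library for 33 of 33 genes. For this library alone the share of all genes was not counted. With a term for library set 32 of 33 stayed called, and Mx1 did not, while 25.2% of all genes were called in either direction. Cell markers differed between these groups in both directions, against 17.3% of all genes called higher and the 20.9% called lower. In NNK_LPS tumours 13 of 14 monocyte and macrophage markers and 8 of 11 neutrophil markers were lower than in LPS lung. Of 10 alveolar macrophage markers 7 were higher and 1 was lower (median 1.32), and 7 of 8 alveolar type 2 markers were higher. The part of these markers was not tested.

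Against Control lung, NNK_LPS tumours were higher in 3 genes, all of the OAS family. Oas1a had 28.3, 20.1 and 25.2 CPM in NNK_LPS tumours and 9.56, 9.45 and 12.7 CPM in Control lung, a change of 1.21 ± 0.25 (adjusted p = 0.00295). Oas2 had 39.8, 18.5 and 25.8 CPM in NNK_LPS tumours and 5.69, 7.6 and 10.3 CPM in Control lung, a change of 1.83 ± 0.44 (adjusted p = 0.00756). Oas3 had 20.9, 12.6 and 8.99 CPM in NNK_LPS tumours and 1.44, 1.15 and 3.36 CPM in Control lung, a change of 2.82 ± 0.68 (adjusted p = 0.008). For these 3 genes and no other of the 33 all NNK_LPS libraries lay above all Control libraries, while 18.9% of all genes did so. Ifit2 went the other way without overlap, with 33.4, 25.8 and 36.8 CPM in NNK_LPS tumours and 43.8, 42.8 and 48.8 CPM in Control lung, and 21.4% of all genes were lower in this way. Its change of -0.50 ± 0.32 was not called (adjusted p = 0.27), but it was called in a fit of these 2 groups alone. In all, 3 of 33 is 9.09%, while 12.0% of all genes were called higher in this comparison. The share of the 33 genes was thus not above the background. Among the 46 further interferon-stimulated genes outside the 33, 11 were called higher and 2 lower. Among 17 genes that lead to interferon induction 5 were higher, and among 10 negative regulators 1 was, with none lower in either list. Of the 15770 genes tested, 1990 were called lower. Oas1g, a paralog of Oas1a outside the 33, had 11.8, 6.43 and 9.9 CPM in NNK_LPS tumours and 2.2, 1.47 and 2.71 CPM in Control lung (2.14 ± 0.41, adjusted p = 0.00191), and reads of the 2 genes may be split between them. The groups share no library set, and with a term for set 0 of 33 genes were called and the estimates were 1.32, 2.04 and 2.68 for Oas1a, Oas2 and Oas3. Of the 14 monocyte and macrophage markers 9 were higher in NNK_LPS tumours than in Control lung, and of the 12 T cell markers 5, and their part was not tested. Without Control 3, which was the highest Control library for 26 of the 33 genes, Zbp1 and Stat2 were called too, giving 5.

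Between NNK tumours and Control lung, edgeR called 0 of 33 genes, against 13.1% of all genes in either direction, and 2 had an unadjusted p under 0.05. These were Oas3, with 4.48, 7.59 and 10.6 CPM in NNK tumours and 1.44, 1.15 and 3.36 CPM in Control lung (1.91 ± 0.71, adjusted p = 0.0819), and Oas2, with 11.5, 20.8 and 16 CPM in NNK tumours and 5.69, 7.6 and 10.3 CPM in Control lung (1.02 ± 0.44, adjusted p = 0.132). Neither overlapped between the groups, and 17.3% of all genes were higher without overlap. Both were called by DESeq2 and in a fit of these 2 groups alone. The median of the 33 genes was 0.06, from -0.47 for Ifit2 to 1.91 for Oas3. Oas1g was called in this comparison (1.42 ± 0.42, adjusted p = 0.0345).

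The dietary agents were compared with NNK_LPS tumours, which the 3 comparisons share. With silibinin, 0 of 33 genes were called by edgeR or DESeq2 and 0 had an unadjusted p under 0.05, as 0% of all genes were called. The median log2 change was -0.07, from -0.35 for Oas2 to 0.57 for Mx1. With indole-3-carbinol, 0 of 33 genes were called by either tool and 0 had an unadjusted p under 0.05 in edgeR, against 2.02% of all genes called. The median was -0.04, from -0.62 for Ifit3 to 0.67 for Oasl1.

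With both agents, 0 of 33 genes were called by edgeR, against 1.36% of all genes, and 14 had an unadjusted p under 0.05, all of them higher. The share of all genes with an unadjusted p under 0.05 was not counted in this or any other comparison. All 33 estimates were above 0, with a median of 0.49, from 0.07 for Oas2 to 1.05 for Isg15. The median over all genes was 0.02, and the share of all genes with an estimate above 0 was not counted. The groups share no library set, and with a term for set 1 gene in place of 14 had an unadjusted p under 0.05, the median was 0.42 and the lowest estimate was -0.05. In a fit of these 2 groups alone 5 had one. Ifi35 came nearest to the threshold, with 51.6, 58.1 and 53.3 CPM in NNK_LPS_Sil_I3C tumours and 45.8, 37 and 43.2 CPM in NNK_LPS tumours (0.37 ± 0.09, adjusted p = 0.0592), and DESeq2 called it alone of the 33. Ifi35, Bst2, Ifih1 and Samhd1 were higher in all NNK_LPS_Sil_I3C libraries than in all NNK_LPS libraries, 4 of 33, and 9.47% of all genes were. Isg15 had 9.51, 38.8 and 16.7 CPM in NNK_LPS_Sil_I3C tumours and 15, 5.31 and 10.9 CPM in NNK_LPS tumours (1.05 ± 0.44, adjusted p = 0.247). The groups overlap for Isg15, and 1 NNK_LPS_Sil_I3C library lies far above the other two.

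That library was NNK_LPS_Sil_I3C 2. It was the highest library outside LPS for 32 of 33 genes and lay above every NNK_LPS library for 33 of 33. NNK_LPS_Sil_I3C 3 did so for 19 genes and NNK_LPS_Sil_I3C 1, the lowest of its group for 24 of the 33 genes, for 6. The level of NNK_LPS_Sil_I3C 2 for Irf7 was the second of 25.2, 94.2 and 35 CPM. NNK_LPS tumours had 41.5, 16.6 and 24.2 CPM and NNK_LPS_I3C tumours 25.8, 27.5 and 27.1 CPM. Without NNK_LPS_Sil_I3C 2 the number of genes with an unadjusted p under 0.05 was 1, in place of 14, and the median log2 change was 0.18. Without NNK_LPS 2, the lowest NNK_LPS library for 32 genes, the number was 2, and without NNK_LPS_Sil_I3C 1 it was 24. In the same library set, NNK_LPS_Sil_I3C 2 was above NNK_LPS_I3C 2 and 3 for 33 of 33 genes. For the counts of genes by single library given here, the share of all genes was not counted. In NNK_LPS_Sil_I3C 1, 2 and 3, Ifng was at 1.11, 3.65 and 0.606 CPM and T cell markers summed to 202, 273 and 127 CPM, both highest in library 2. Monocyte and macrophage markers summed to 1107, 1156 and 751 CPM. In the NNK_LPS_I3C libraries T cell markers summed to 126 to 225 CPM and monocyte and macrophage markers to 955 to 1202 CPM. The median of the 33 genes in those libraries was 0.05 to 0.07 above the Control mean. Alveolar type 2 markers summed to 35155 to 36475 CPM in NNK_LPS_Sil_I3C, 36004 to 37227 CPM in NNK_LPS_I3C and 47794 to 66003 CPM in NNK_LPS. Against NNK_LPS, 3 of these 8 markers were called lower with both agents and 4 with I3C. All 8 heart muscle markers were called higher with I3C and none with both agents. Shares of all genes called were 1.36% with both agents and 2.02% with I3C. The part of these cells in the level of the 33 genes was not tested.

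**Figure D5:**
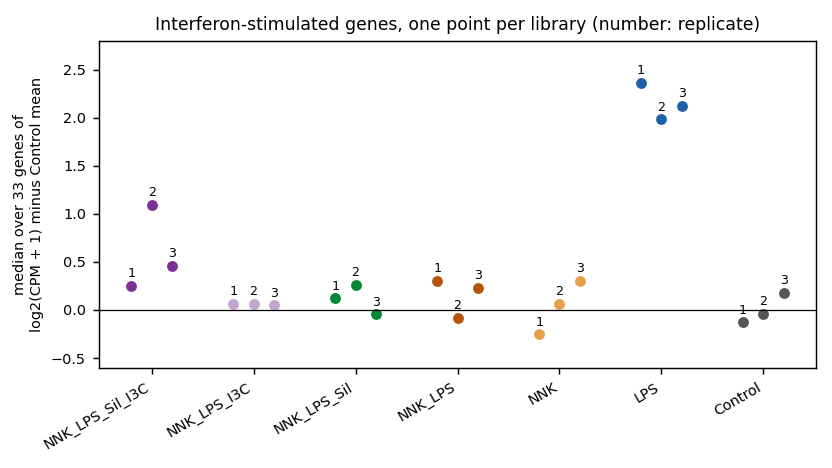
Each point is 1 library, numbered by replicate, and gives the median over the 33 genes of log2(CPM + 1) minus the Control mean. LPS libraries sit at 1.98 to 2.37, NNK_LPS_Sil_I3C at 0.25, 1.09 and 0.46, and the other libraries between -0.25 and 0.31.

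In most groups 1 library was high or low for most of the 33 genes at the same time. In NNK, library 1 was the lowest for 32 genes and library 3 the highest for 27. In NNK_LPS, library 2 was the lowest for 32 genes, and in LPS, library 1 was the highest for 29. The median SD of the 33 genes on the log2(CPM + 1) scale was 0.48 in NNK_LPS_Sil_I3C, 0.13 in NNK_LPS_I3C, 0.24 in NNK_LPS_Sil, 0.29 in NNK_LPS, 0.38 in NNK, 0.23 in LPS and 0.21 in Control, while over all genes tested it was between 0.11 and 0.15 in the same groups. NNK_LPS_I3C, the group with the lowest spread of the 33 genes, had no library that was the highest or the lowest for more than 15 of them. Because the genes share such shifts, their number does not add to the number of libraries, and the 33 calls are not 33 separate pieces of evidence.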

How the data were processed

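The authors deposited 1 table of raw counts per gene symbol for the 21 libraries, whole numbers with no normalization, made with a TruSeq RNA kit per the labels' protocols. The build was mm10 per the submitters' processing notes. For the aligner, the read counter, the gene annotation and the strand setting, nothing is given in the sources used here. Total counts ran from 13305504 to 25276293 per library.

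The deposited counts went into edgeR 4.0.16 with limma 3.58.1 under R 4.3.3. Scaling used TMM factors, filterByExpr (minimum count 10) left 15770 genes, and a robust quasi-likelihood model with 1 coefficient per group was fitted to all 7 groups (14 residual degrees of freedom). The Benjamini-Hochberg adjustment covered all 15770 genes in each comparison, with calls made at 0.05. Log2 changes are given ± their standard error, for 3 libraries per group. Exon lengths and positions came from GENCODE M21 (GRCm38). Where CPM were put on a log scale, a pseudocount of 1 was added. The scripts were tested on simulated data. Alternatives were relative log expression size factors, no filter, DESeq2 1.42.0, a block for the replicate number, a fit of only the groups compared, a term for library set, and leaving out each library.

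The genes and lists were chosen with earlier results of these data known. All 33 genes are named, with every library's value for the 2 of each role class with the highest mean CPM over the 21 libraries, and for up to 3 called genes with the highest and 3 with the lowest change per comparison. Ifnb1, Ifnar1 and Ifnar2 are named throughout, with up to 3 called genes of other lists per comparison by smallest adjusted p. Genes or values shown beyond this rule were chosen after their values were seen, which include values by library of Isg15, Irf7, Trim30a, Mx1 and Ifng. A single gene that this rule names among the context lists is left out and not reported here.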

Additional observations from a re-analysis of the deposited data

Results flagged for a closer look

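The LPS effect differed between tumours and lung, by the interaction test of edgeR, for 33 of 33 genes, and each difference was negative. Among the genes named for this comparison, the log2 difference was -5.21 for Oas3, -4.79 for Rsad2, -4.73 for Oasl1, -0.99 for Irf9, -0.87 for Eif2ak2 and -0.69 for Ddx58. NNK_LPS shares no library set with NNK or Control, and tumour tissue and NNK cannot be told apart in this design. When each library was left out in turn, 31 to 33 genes were called, against 19.6% to 24.3% of all genes in either direction. The median log2 difference then lay between -2.41 (without Control 3) and -1.93 (without NNK 3).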

How the results depend on the processing

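The 33 calls for LPS against Control lung held under every alternative, with 33 called in each, and no called result changed direction. Of all genes, 34.1% to 52.8% were called under these alternatives. Shares of all genes in this paragraph count both directions. Between NNK and Control, 2 genes were called with DESeq2 (16.8% of all genes) and 2 with the compared groups alone (15.5% of all genes), in place of 0. Between NNK_LPS and Control, 3 were called, and 0 with the term for library set, where 24 of all genes were called. DESeq2 called 4 (Stat2 added), against 27.2% of all genes. The compared groups alone gave 4 (Ifit2 added, which was lower), against 17.2% of all genes. Leaving out each library gave 3 to 5, against 14.0% to 27.3% of all genes. Between NNK_LPS_Sil_I3C and NNK_LPS, 1 was called with DESeq2 in place of 0, against 4.44% of all genes. The interaction gave 31 with the library set term, against 19.1% of all genes. It gave 31 to 33 when libraries were left out, against 19.6% to 24.3% of all genes. For NNK_LPS against NNK, Control or LPS, and for the interaction, the set term rests on 1 library, LPS 3. The cause of these shifts was not tested, except that fewer libraries were fitted when one was left out. The median in LPS lung was 2.13 without LPS 1, and the interaction's was -1.93 without NNK 3. Replicate numbers here give the order of libraries within a group, and the labels name no pairing. Of 63 same-numbered pairs, 18 correlated above 0.1 (r from -0.42 to 0.52). Of 126 differently numbered pairs, 30 did (r from -0.47 to 0.48). A pairing in another order could not be seen by this check or by the replicate block. With the replicate block the numbers of called genes were those of the fits without it, 33 for LPS against Control, 3 for NNK_LPS against Control, 33 for NNK_LPS against LPS, 33 for the interaction and 0 for the other 5. With 3 libraries per group, low genes such as Oas3 and Oasl1 in Control carry wide intervals.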
